A study of Mus musculus with 15 samples.

Results

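Genes that moved the same way after depletion of TET1 and after depletion of TET2 were described by pooling the 10 knockdown libraries and comparing them with the 5 control libraries. A gene was a member if the mean of the shTet1 libraries and the mean of the shTet2 libraries lay on the same side of the control mean, which held for 14492 of 26061 genes in the deposited table (8243 above and 6249 below). Another 7752 genes had the 2 means on opposite sides, and 2227 genes were at the table minimum in every library. A test was run on the 19490 genes with reads in at least 5 of the 15 libraries, of which 12441 were members (7118 above and 5323 below). Both knockdowns were compared with the same controls, so the number of members is a description and carries no test. The cells were E14 mouse embryonic stem cells (ESCs), a 129/Ola line grown without feeder cells in serum and LIF. They had been infected with a lentivirus that carried a non-targeting hairpin RNA (shScr) or one against Tet1 (shTet1) or Tet2 (shTet2), 5 libraries each, and RNA was collected after 3 days of puromycin. There was 1 hairpin per gene, all groups had been infected and selected, and each library had been depleted of rRNA before sequencing.

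TET proteins oxidise 5-methylcytosine in DNA to 5-hydroxymethylcytosine and further products, which is a route to loss of methylation. TET1 and TET2 are the main members in mouse ESCs, whereas TET3 is best known from the egg and from neurons. TET1 carries a CXXC domain that binds unmethylated CpG, TET2 lost this domain in evolution, and both also bind partners such as SIN3A and OGT, and part of what they do does not need their catalytic activity.

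Values are on the authors' variance-stabilised scale, which approaches log2 of normalised reads for well-covered genes and has its minimum, 0 reads, at 4.25. All differences below are in its log2 units, knockdown minus shScr. Reads in genes ranged from 15258291 to 35432425 per library. All 7 ESC markers (Pou5f1, Sox2, Nanog, Zfp42, Esrrb, Utf1 and Sall4) had at least 89.9 normalised reads in every library. None passed the pooled comparison in limma in either fit used below. Of all genes tested, 0.0103% passed without and 0.888% with a term for replicate number. The lack of calls among these 7 therefore does not show them to be unchanged. Markers of fibroblasts summed to 69.0 to 264 normalised reads in shScr, 131 to 157 in shTet1 and 197.9 to 213.5 in shTet2, with 5 of 7 at 0 in at least 1 library. Reads of olfactory and vomeronasal receptor genes, which are near silent in ESCs, stood at 53.3 to 63.4 RPM (reads scaled to the total of gene reads) in shScr replicate 4, shTet1 replicates 3 and 4 and shTet2 replicate 4, and at 9.43 to 26.3 in the other 11 libraries. Counts of calls are given with and without those 4 libraries. Of the 53 genes singled out by the rule for named genes, by the smallest p or by groups without overlap that passed with a term for replicate number in the fit, all 53 kept their direction without them and only Tet2 still passed. The 53 were chosen in all 15 libraries, so their kept direction is partly set by that choice.

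The targeted genes were the first check of the labels. Tet2 (chromosome 3, 133126643 to 133207354, mm9) was 13.15, 13.24, 13.26, 13.52 and 13.45 in shScr replicates 1 to 5. After Tet1 knockdown it was 13.10, 12.72, 13.27, 13.02 and 13.17, and after Tet2 knockdown 11.32, 11.12, 11.61, 11.48 and 11.59. The shTet2 libraries were below all others, whereas the shTet1 values overlapped those of shScr. The pooled difference of −1.09 (SE 0.12, 95% confidence interval −1.33 to −0.84, limma adjusted p = 0.000339) was therefore almost wholly that of shTet2 (−1.90), with −0.27 in shTet1. Tet1 (chromosome 10, 62267318 to 62361866, mm9) showed the mirror image, with −1.84 in shTet1, −0.18 in shTet2 and a pooled difference of −1.01 (SE 0.17, limma adjusted p = 0.0503). Tet1 and Tet2 meet the rule for members, but each was lowered mainly by its own hairpin. Tet3 was low throughout (119 ± 45.9 normalised reads in the control libraries, SD, n = 5), and its pooled difference of −0.28 had an interval of −0.78 to 0.22.

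To ask what loss of either protein had in common, every gene was tested for a pooled difference with limma, 10 libraries against 5, with Benjamini-Hochberg adjustment over all 19490 genes. Only Tet2, lower, and Ccdc141, higher, had an adjusted p under 0.05, which is 0.0103% of the genes tested (0.00513% in each direction). An unadjusted p under 0.05 was found for 1820 genes (9.34%). For the single knockdowns, which share the shScr libraries, 0.0718% of genes passed for shTet1 and 0.390% for shTet2, and 4.80% and 4.31% with the replicate term that is described next. The next 14 genes had adjusted p-values between 0.0503 and 0.0985, and all 16 were members. Libraries with the same number deviated from their group means together. Libraries of different number were not compared, so this does not establish pairing by number. The correlation between the mean of the 2 knockdown libraries and the shScr library of the same number was 0.678, 0.426, 0.209, 0.770 and 0.588 for numbers 1 to 5, although that of shTet2 with shScr for number 3 alone was 0.00789. With the replicate number added as a term, 173 genes passed (0.888% of those tested), 97 higher (0.498%) and 76 lower (0.390%) in the knockdowns, of which 170 were members (96 higher, 74 lower). This count hung on single libraries. It was 7 without shScr replicate 1, 12 without shScr replicate 4, 22 without shScr replicate 2, 390 without shScr replicate 3, 391 without shTet2 replicate 3 and 1 (Tet2) without the 4 libraries with high receptor reads. With the values of each library centred on its median, the count with the replicate term was 161, but 47 were higher and 114 lower. Genes are therefore described with the adjusted p of both fits, or of the fit with the term alone where so marked. Without the term, only Tet2 and Ccdc141 passed. Standard errors are those without the term unless said otherwise, and "rose" and "fell" are used for genes that passed with the replicate term.

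**Figure D1:**
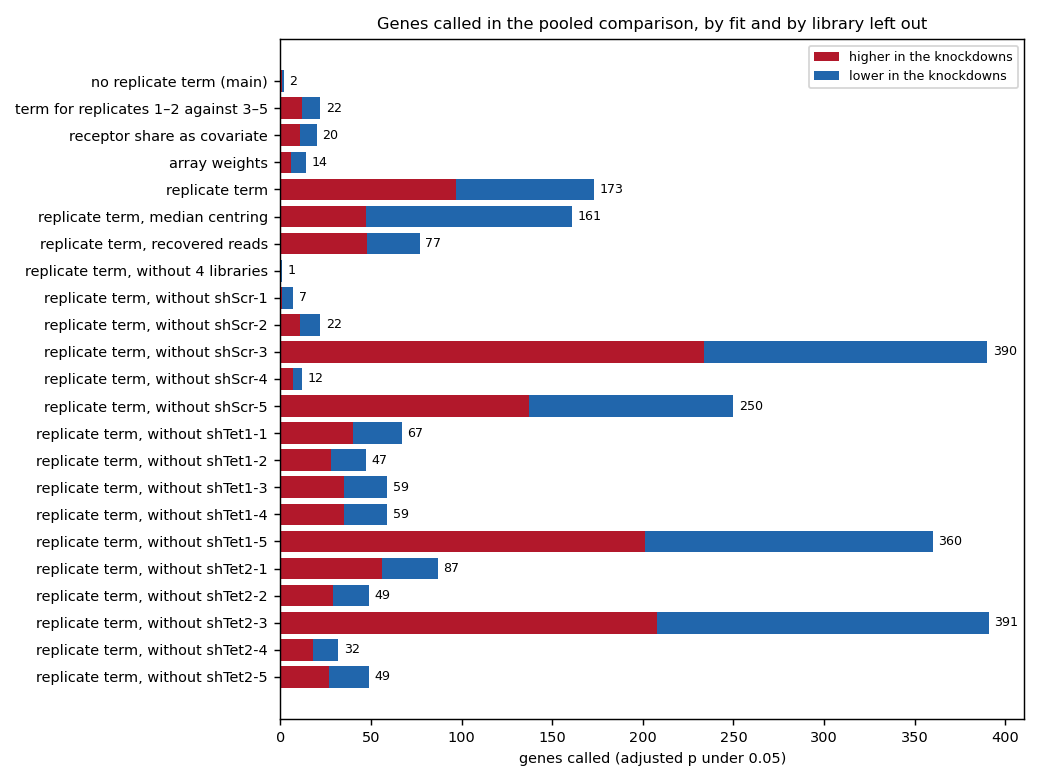
Genes with an adjusted p under 0.05 in the pooled comparison (x axis, number of genes; red higher and blue lower in the knockdowns), by fit and by the library left out (y axis). The count is 2 without and 173 with a term for replicate number, and ranges from 7 to 391 when 1 library is left out of the latter.

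Ccdc141, which encodes a coiled-coil protein known from migrating neurons, was the gene with the firmest pooled increase. It was 7.99, 8.24, 8.36, 8.17 and 7.62 in shScr replicates 1 to 5, 8.98, 8.86, 8.78, 8.80 and 8.38 with shTet1, and 9.54, 9.70, 9.14, 9.38 and 9.08 with shTet2. All 10 knockdown libraries were above all shScr libraries, and all shTet2 libraries were above all shTet1 libraries. The pooled difference was 0.99 (SE 0.15, 95% confidence interval 0.68 to 1.30; limma adjusted p = 0.0196, or 0.000524 with the replicate term), from 0.69 in shTet1 and 1.29 in shTet2. Normalised reads averaged 237 ± 50.4 with shScr, 401 ± 63.9 with shTet1 and 631 ± 120 with shTet2 (SD, 5 libraries per group). Without the replicate term, Ccdc141 passed in 8 of the 15 fits that left out 1 library, and its adjusted p was 0.121 without shScr replicate 1, the highest of the 15. It passed in all 15 with the term. Without the 4 libraries with high receptor reads the difference was 1.00, with limma adjusted p-values of 0.320 and, with the replicate term, 0.0573. The gene lies on chromosome 2 (76847960 to 77008693, mm9, minus strand), and no exon of another gene overlaps its exons in the annotation.

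Rfk, Gstm2 and Kat2b had differences of nearly the same size in both knockdowns. Rfk encodes riboflavin kinase, the enzyme that turns vitamin B2 into flavin mononucleotide. It was 8.90, 8.92, 8.94, 8.71 and 8.89 in shScr, 9.47, 9.56, 9.36, 9.29 and 9.46 with shTet1, and 9.33, 9.62, 9.31, 9.44 and 9.55 with shTet2. The groups did not overlap, and the differences were 0.56 in shTet1 and 0.58 in shTet2. The pooled value was 0.57 (SE 0.10, 95% confidence interval 0.36 to 0.78; limma adjusted p = 0.0538 without and 0.00835 with the replicate term). Gstm2, a glutathione S-transferase of the mu class, was 6.29, 6.19, 6.65, 6.75 and 6.35 in shScr, 7.22, 7.19, 7.09, 7.51 and 7.07 with shTet1, and 6.99, 7.14, 7.12, 7.21 and 7.0 with shTet2. Normalised Gstm2 reads in the pooled knockdowns were 197% of shScr, and the pooled difference was 0.70 (SE 0.13; limma adjusted p = 0.0678 without and 0.00939 with the term). Of the 50-base stretches of its transcripts, 4.98% also occur in Gstm1 or a predicted relative, so that a small part of its reads is uncertain.

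Kat2b encodes the histone acetyltransferase PCAF. It was 11.50, 11.40, 11.34, 11.84 and 11.37 in shScr, 11.08, 10.74, 10.73, 10.99 and 10.98 with shTet1, and 10.89, 10.88, 10.77, 10.94 and 11.01 with shTet2. All 10 knockdown libraries were below all 5 shScr libraries, and both knockdowns differed by −0.59. Normalised reads averaged 2864 ± 448 with shScr, 1886 ± 213 with shTet1 and 1872 ± 116 with shTet2 (SD, 5 libraries per group). The pooled difference was −0.59 (SE 0.11, 95% confidence interval −0.82 to −0.37; limma adjusted p = 0.0538 without and 0.00835 with the replicate term). With the term, Kat2b passed in all 15 fits that left out 1 library, whereas Rfk and Gstm2 each passed in 13 and were lost without shScr replicate 1 or 4. Without the 4 libraries with high receptor reads, the differences of Rfk, Gstm2 and Kat2b were 0.56, 0.74 and −0.49, with limma adjusted p-values of 0.320, 0.320 and 0.373.

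The promoters of these genes are shown because TET proteins act on cytosines in CpG, and the 4 genes differ in how many they have. Each sequence runs from 250 bases before to 50 after a transcription start in RefSeq (GRCm38.p6), 5′ to 3′ on the strand of the gene, with every CG in capitals. Ccdc141 (chr2:77170586-77170885, minus strand) had 7 CG, Rfk (chr19:17393793-17394092, plus strand) had 26, Gstm2 (chr3:107986371-107986670, minus strand) had 3 and Kat2b (chr17:53566721-53567020, plus strand, the first of 2 listed) had 11.
Ccdc141: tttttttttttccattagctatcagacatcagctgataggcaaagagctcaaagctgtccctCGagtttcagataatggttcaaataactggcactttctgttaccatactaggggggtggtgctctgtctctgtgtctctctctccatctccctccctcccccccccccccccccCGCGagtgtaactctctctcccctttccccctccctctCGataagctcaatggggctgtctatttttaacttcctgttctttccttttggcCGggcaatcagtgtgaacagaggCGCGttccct 
Rfk: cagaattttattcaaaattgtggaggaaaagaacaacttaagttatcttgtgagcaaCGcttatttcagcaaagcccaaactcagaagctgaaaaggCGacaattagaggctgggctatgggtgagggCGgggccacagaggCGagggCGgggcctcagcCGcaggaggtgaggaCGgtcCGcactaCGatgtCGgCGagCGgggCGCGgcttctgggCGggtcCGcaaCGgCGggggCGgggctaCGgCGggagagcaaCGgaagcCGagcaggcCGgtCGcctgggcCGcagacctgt 
Gstm2: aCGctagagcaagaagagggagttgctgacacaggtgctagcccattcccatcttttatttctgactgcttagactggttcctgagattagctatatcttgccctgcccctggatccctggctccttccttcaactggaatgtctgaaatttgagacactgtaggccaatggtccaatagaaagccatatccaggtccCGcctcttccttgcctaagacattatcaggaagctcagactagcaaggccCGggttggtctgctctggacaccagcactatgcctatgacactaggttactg 
Kat2b: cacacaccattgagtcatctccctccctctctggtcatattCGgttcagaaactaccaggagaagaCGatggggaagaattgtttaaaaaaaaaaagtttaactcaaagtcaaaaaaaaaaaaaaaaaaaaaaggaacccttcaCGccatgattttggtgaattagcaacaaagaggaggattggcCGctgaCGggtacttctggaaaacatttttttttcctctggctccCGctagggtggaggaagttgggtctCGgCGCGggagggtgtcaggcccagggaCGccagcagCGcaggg
Of the 27025 genes with a promoter of this length in the table, 16.8% had as many CG as Rfk or more, 41.9% as many as Kat2b, 52.3% as many as Ccdc141 and 76.2% as many as Gstm2. The 3 genes that were higher in all 10 knockdown libraries thus ranged from a promoter dense in CG to one with almost none. The methylation of these promoters was not analysed here.

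**Figure D2:**
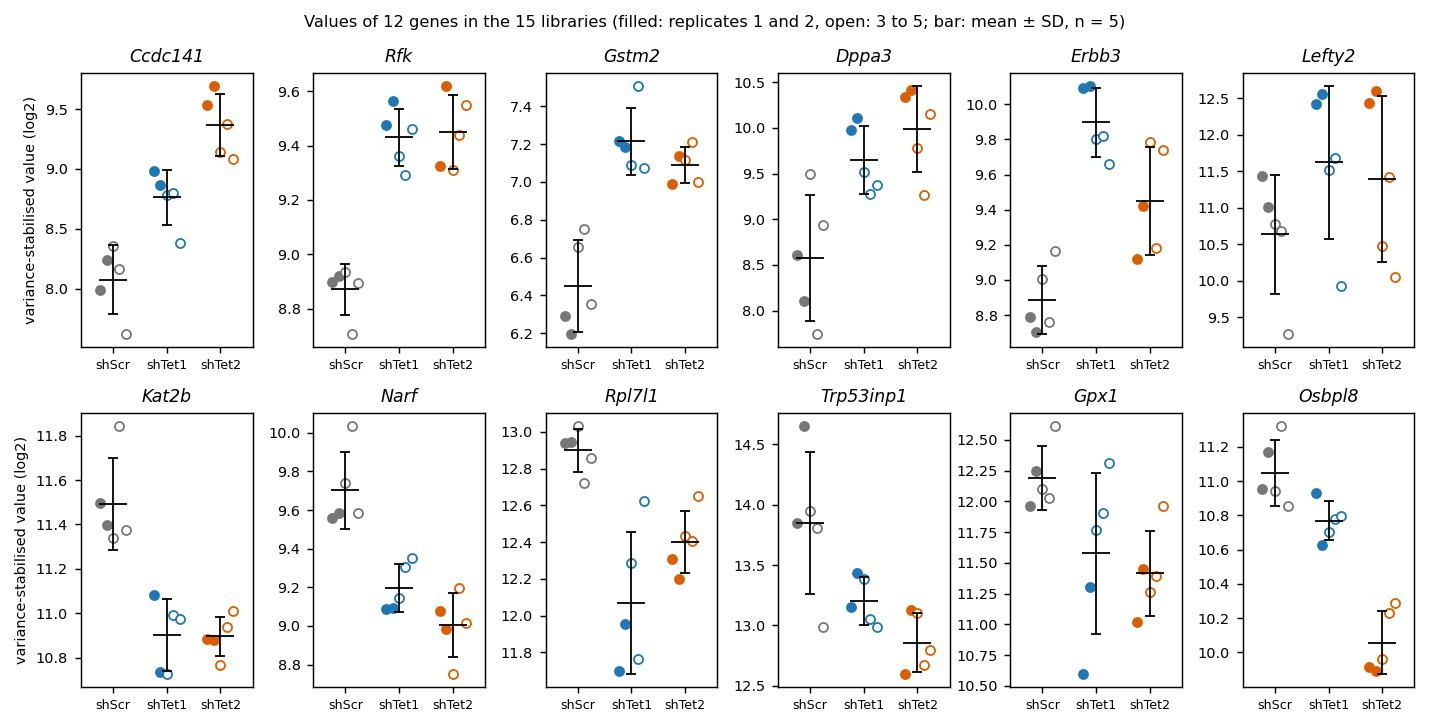
Variance-stabilised values (y axis, log2 units; the axes do not start at 0) of 12 genes in the 5 shScr, 5 shTet1 and 5 shTet2 libraries (x axis), with filled points for replicates 1 and 2, open points for 3 to 5, and bars for the mean ± SD. For Ccdc141, Rfk, Gstm2, Kat2b, Narf and Rpl7l1 the knockdown libraries do not overlap the shScr libraries, whereas for Lefty2 they overlap and follow the replicate number.

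Among the 19490 genes tested, 31 (0.159%) had all 10 knockdown libraries on one side of all 5 shScr libraries, 20 above (0.103%) and 11 below (0.0564%). Lack of overlap and a call with the replicate term rest on the same values, so neither is separate support for the other. Of the 31 genes, 16 also passed with the replicate term, where 0.888% of all genes tested did. Besides Ccdc141, Rfk and Gstm2, those that rose by the rule for named genes were Wfdc2, a secreted protease inhibitor, at 1.04 (SE 0.25), Kcnh3, a voltage-gated potassium channel, at 0.76 (SE 0.18), and Myh7b, a myosin heavy chain, also at 0.76 (SE 0.16). Papss1, which makes the universal sulphate donor, was at 0.57 (SE 0.17) and Ndrg3 at 0.42 (SE 0.11). In limma with the replicate term their adjusted p-values lay between 0.0196 (Kcnh3) and 0.0444 (Ndrg3), and without it between 0.196 and 0.372. Each passed with the term in at most 12 of the 15 fits that left out 1 library (Ndrg3 and Papss1 in 4), and each was lost without shScr replicate 1 or 2, or shTet2 replicate 4. Kcnj11, a subunit of the ATP-sensitive potassium channel, had reads in 1 of 5 shScr libraries and in all 10 knockdown libraries, at 5.86 ± 3.32 normalised reads with shTet1 and 4.33 ± 1.82 with shTet2 (SD, 5 libraries per group). Its values of 4.25, 4.25, 4.60, 4.25 and 4.25 in shScr against 4.77 to 5.28 in the knockdowns rest on a few reads per library.

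Narf and Rpl7l1, both more abundant, lay below shScr in every knockdown library. Narf, the prelamin A recognition factor, was 9.56, 9.59, 9.74, 10.04 and 9.58 in shScr, 9.09, 9.09, 9.14, 9.30 and 9.35 with shTet1, and 9.08, 8.98, 8.75, 9.20 and 9.01 with shTet2. Rpl7l1, a nucleolar relative of ribosomal protein L7, was 12.94, 12.95, 13.03, 12.72 and 12.86 in shScr, 11.70, 11.96, 12.29, 11.76 and 12.62 with shTet1, and 12.31, 12.20, 12.43, 12.40 and 12.65 with shTet2. The groups were close at their edges, with the lowest shScr library at 9.56 against the highest knockdown library at 9.35 for Narf, and at 12.72 against 12.65 for Rpl7l1. The pooled difference was −0.60 (SE 0.11) for Narf and −0.67 (SE 0.14) for Rpl7l1, with limma adjusted p-values of 0.0678 and 0.127 without and 0.00865 and 0.0103 with the replicate term. Both were lost with the term without shScr replicate 1 or 4, and Rpl7l1 also without shScr replicate 2. Ctsf, a lysosomal cathepsin, fell with the term by 0.49 (SE 0.12; limma adjusted p = 0.0379 with and 0.294 without it). Both Narf and Rpl7l1 were named among the 20 members of smallest unadjusted p, a choice made after the values were seen.

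The 96 members that rose with the replicate term had a median pooled difference of 0.62 and the 74 that fell of −0.56. The median size over all genes tested was 0.131. Both sets were chosen for passing on this same difference, so their larger size is set by that choice. The largest difference was that of Dppa3 (Stella, also PGC7), a maternal factor that guards methylation in the early embryo and is active in naive ESCs. Dppa3 (chromosome 6, 122576428 to 122580290, mm9) was 8.61, 8.11, 9.50, 7.74 and 8.94 in shScr, 9.98, 10.10, 9.52, 9.28 and 9.37 with shTet1, and 10.33, 10.41, 9.78, 9.27 and 10.16 with shTet2. Of the 10 knockdown libraries 7 were above all shScr libraries, and shScr replicate 3 overlapped with the rest. The difference was 1.07 in shTet1, 1.41 in shTet2 and 1.24 pooled (SE 0.25, 95% confidence interval 0.72 to 1.76; limma adjusted p = 0.0985 without and 0.0101 with the term). Normalised Dppa3 reads in the pooled knockdowns were 237% of shScr. The pooled difference was 1.85 among replicates 1 and 2 and 0.84 among replicates 3 to 5. The call with the term was lost without shScr replicate 1, 2 or 4.

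Lefty1 and Lefty2, secreted inhibitors of Nodal that are themselves induced by Nodal signalling, showed how far the replicate number mattered. Lefty2 was 11.44, 11.01, 10.78, 10.68 and 9.26 in shScr, 12.42, 12.57, 11.51, 11.69 and 9.93 with shTet1, and 12.44, 12.60, 10.48, 11.42 and 10.05 with shTet2. Replicates 1 and 2 were the highest and replicate 5 the lowest in every group, and 9 of the 10 knockdown libraries were above the shScr library of their number. The pooled difference of Lefty2 was 0.88 (95% confidence interval −0.07 to 1.82, limma adjusted p = 0.569) without and 0.88 (0.54 to 1.21, limma adjusted p = 0.0215) with the replicate term. Lefty1 was above its number's shScr library in all 10, with differences of 0.61 and 0.59 in the single knockdowns. Its pooled difference was 0.60 (0.38 to 0.82 with the term, limma adjusted p = 0.0156 with and 0.798 without it). Of the 50-base stretches of Lefty1 and Lefty2, 17.9% and 11.6% are shared between the pair, so that part of their reads could be swapped. With the term, Lefty1 was lost without shScr replicate 1, 2 or 4, and Lefty2 passed in 7 of the 15 fits that left out 1 library.

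Another 4 members that passed with the replicate term are described here. Erbb3, a receptor of neuregulins, was 8.70 to 9.17 in shScr, 9.66 to 10.11 in shTet1 and 9.12 to 9.78 in shTet2, and only shTet2 replicate 1 overlapped with shScr. Its pooled difference was 0.79 (SE 0.14; limma adjusted p = 0.0503 without and 0.00987 with the replicate term). Epb4.1l3, a protein that ties membrane proteins to the cytoskeleton, had nearly equal differences of 0.75 and 0.72 (limma adjusted p = 0.142 without and 0.00835 with the term). Sfrp2, a secreted modulator of Wnt signalling from the primed epiblast list, rose with the term by 0.79 (SE 0.19; limma adjusted p = 0.0273 with and 0.258 without it). Of its exon bases, 16.1% are overlapped by an antisense gene. Sfrp2 was the only gene of the primed epiblast list to pass with the term, where 0.888% of all genes tested did. Of the 14 genes of that list, 7 were above and 7 below shScr, with a median of −0.006. Rhobtb3, a protein of the Golgi, rose with the term by 0.73 (SE 0.13; limma adjusted p = 0.0129 with and 0.0538 without it). All 4 lost the call without shScr replicate 1.

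**Figure D3:**
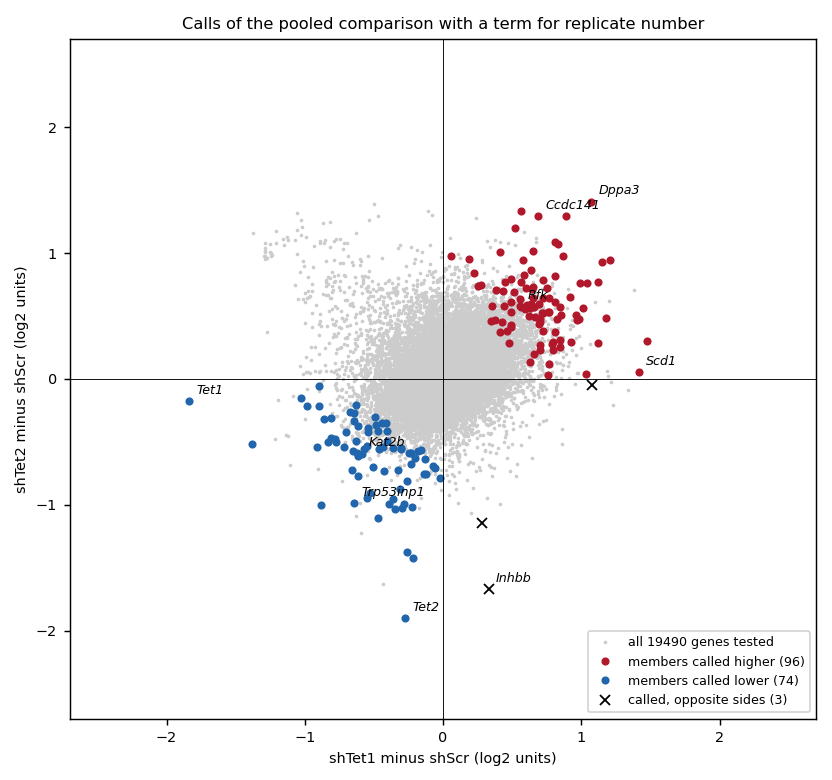
Difference of each gene in shTet1 (x axis) and in shTet2 (y axis) from the shared shScr libraries, in log2 units, for the 19490 genes tested (grey) and the genes that passed the pooled comparison with the replicate term (96 members higher in red, 74 members lower in blue, 3 genes on opposite sides as crosses; grey points beyond the axes are drawn at the edge). Kat2b and Rfk lie near the diagonal, whereas Tet1 and Tet2 lie near the axes.

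Among the members that fell with the replicate term, Trp53inp1, a target of p53 that takes part in cell death and autophagy, was the one named both by rank and by its list. It was 13.84, 14.65, 13.94, 13.80 and 12.99 in shScr, 13.15, 13.43, 13.38, 13.05 and 12.99 with shTet1, and 12.60, 13.13, 13.10, 12.68 and 12.79 with shTet2. Every shScr library but replicate 5 was above every knockdown library. The pooled difference was −0.82 (SE 0.19; limma adjusted p = 0.252 without and 0.00962 with the term). Gpx1, a selenium-dependent peroxidase, was 11.97 to 12.62 in shScr, 10.59 to 12.31 in shTet1 and 11.02 to 11.96 in shTet2, with a pooled difference of −0.69 (SE 0.21; limma adjusted p = 0.375 without and 0.0247 with the term). Fkbp6, a factor of the piRNA pathway in germ cells, differed by −0.69 (SE 0.21), the ecto-nucleotidase Nt5e by −0.94 (SE 0.33) and Pgap1, which remodels GPI anchors, by −0.72 (SE 0.16). The transcription factor Runx1, known from blood formation, differed by −0.74 (SE 0.19), Crebzf by −0.57 (SE 0.15), Pih1d2 by −0.61 (SE 0.16), Zmat4 by −0.73 (SE 0.26), Arap2 by −0.63 (SE 0.18) and titin, Ttn, by −0.95 (SE 0.38). With the term, the limma adjusted p-values of these 9 genes lay between 0.0182 and 0.04996, and without it between 0.233 and 0.452. All 11 genes lost the call without shScr replicate 1 or 4, and all but Trp53inp1 also without shScr replicate 2.

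Other genes near the threshold without the replicate term were members by sign only and mainly followed 1 knockdown. Ormdl2, a regulator of sphingolipid synthesis, differed by −0.26 in shTet1 and −1.38 in shTet2, Osbpl8, an oxysterol-binding protein, by −0.28 and −0.99, and l7Rn6 by −0.22 and −1.42. The difference between the knockdowns was itself significant for each (limma adjusted p = 0.000506, 0.00265 and 0.000429), as it was for 4.24% of all genes tested. An antisense gene overlaps 75.9% of the exon bases of Ormdl2, so that its reads may be mixed. With the replicate term, 63 of the 170 members that passed also differed between shTet2 and shTet1 (limma adjusted p under 0.05), where 11.2% of all genes tested did. At the edge of the rule, Adprh was a member with −0.02 in shTet1 and −0.79 in shTet2, and Slc25a15 was not, with 0.28 in shTet1 and −1.15 in shTet2.

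A principal component of the libraries' deviations from their group means held 37.9% of the variance and set replicates 1 and 2 apart from 3 to 5 in all 3 groups. With a term for this split in place of the replicate number, 22 genes passed (0.113% of those tested), 12 higher (0.0616%) and 10 lower (0.0513%), and all 22 were members. The 33 named genes kept their direction in both sets of libraries. Most had been named for passing in these same libraries, so the shared direction is partly set by that choice and is no separate support. For 31 of the 33, the pooled difference was larger among replicates 1 and 2, as for Wfdc2 (1.82 against 0.53) and Nt5e (−1.63 against −0.48). For Rfk (0.59 against 0.56) and Kat2b (−0.55 against −0.62) the values were close.

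**Figure D4:**
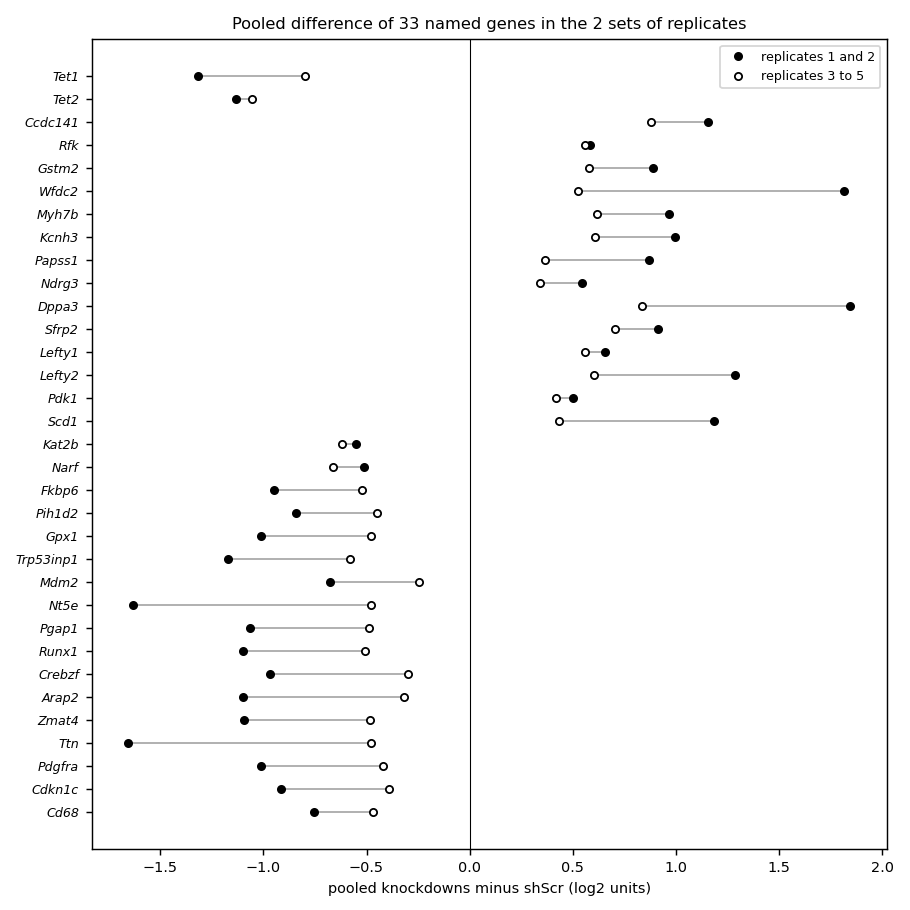
Pooled difference from shScr (x axis, log2 units) of 33 named genes (y axis) among replicates 1 and 2 (filled, 4 knockdown and 2 shScr libraries) and among replicates 3 to 5 (open, 6 and 3 libraries). All 33 genes have the same sign in both sets, and the value among replicates 1 and 2 is the larger for most. Most of the genes were named for passing in these same libraries.

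The other genes were read by lists chosen for ESC biology, with the median pooled difference of all tested genes at 0.03. Of all 19490 genes tested, 10878 were above and 8612 below shScr. With the replicate term 0.888% passed (0.498% higher and 0.390% lower). Genes of cholesterol and fatty acid synthesis, which are switched on by SREBP when sterols are low, leaned upwards, with 22 of 23 above shScr and a median of 0.26. Only Scd1, the stearoyl-CoA desaturase, passed with the replicate term (limma adjusted p = 0.0454 with and 0.368 without it). It was higher in shTet1 (1.42) and not in shTet2 (0.05), a difference between the knockdowns of −1.36 (limma adjusted p = 0.00304 without the term). The list's median was 0.43 in shTet1 and 0.05 in shTet2. Nsdhl, an enzyme of late sterol synthesis, was at 0.53 (SE 0.19; limma adjusted p = 0.103 with the term). Of the genes of glycolysis and the response to hypoxia, 20 of 22 were above shScr, with a median of 0.17, 0.18 in shTet1 and 0.10 in shTet2. Of these, Pdk1, the kinase that shuts pyruvate out of mitochondria, passed with the term (0.45, SE 0.21; limma adjusted p = 0.0492 with and 0.525 without it). Hexokinase 1, Hk1, had the highest value at 0.81 (SE 0.28), with a limma adjusted p of 0.133 with the term.

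The p53 list, which holds targets of p53 and Trp53 itself, leaned downwards. In it 19 of 21 genes were below shScr, with a median of −0.21, at −0.38 in shTet1 and −0.06 in shTet2. Trp53inp1 and Mdm2, the ubiquitin ligase that holds p53 in check, passed with the replicate term (0.390% of all genes tested were called lower). Mdm2 was 12.47 to 13.28 in shScr, 12.04 to 12.46 in shTet1 and 12.45 to 12.76 in shTet2, a pooled difference of −0.42 (SE 0.12; limma adjusted p = 0.04996 with and 0.372 without the term). It followed shTet1 (−0.63) more than shTet2 (−0.21), and with the term the knockdowns differed from each other (limma adjusted p = 0.0182). Trp53 itself was at 0.14 (SE 0.24) and Cdkn1a, the p53 target that stops the cell cycle, at −0.00 (SE 0.22). The list's median was −0.43 among replicates 1 and 2 and −0.06 among replicates 3 to 5.

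Markers of primitive endoderm, the lineage that ESC cultures shed spontaneously, had 12 of 15 genes below shScr and a median of −0.42 (−0.21 in shTet1 and −0.63 in shTet2). Pdgfra, its receptor tyrosine kinase, was 8.23 to 8.64 in shScr, 7.45 to 8.36 in shTet1 and 7.01 to 8.01 in shTet2. It passed with the replicate term (−0.66, SE 0.18; limma adjusted p = 0.0356 with and 0.329 without it). Of all 19490 genes tested, 8612 were below shScr and 0.390% were called lower with the term. Gata6, Gata4, Sox7 and Sox17, the transcription factors of the lineage, were at −0.59, −0.42, −0.49 and −0.33, with limma adjusted p-values of 0.135 to 0.281 with the term. Summed over Gata4, Gata6, Sox17, Sox7 and Pdgfra, normalised reads ranged from 407 to 655 in shScr, 233 to 440 in shTet1 and 122 to 352 in shTet2. The list's median was −0.93 among replicates 1 and 2 and −0.12 among replicates 3 to 5. In bulk libraries, fewer cells of a type and less RNA per cell cannot be told apart. Cd68, a macrophage and lysosome marker that fell with the term (−0.58, SE 0.16; limma adjusted p = 0.0352 with and 0.315 without it), stood in a blood list in which 4 of 6 tested genes were above shScr. The summed reads of Ptprc, Cd68, Csf1r and Tyrobp were 203 to 355 in shScr, 159 to 278 in shTet1 and 110 to 179 in shTet2, with 3 of the 4 genes at 0 in at least 1 library, and the part of such cells in the result was not tested.

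Among core and naive pluripotency genes, Dppa3 passed with the replicate term, where 0.888% of all genes tested did. Of the 12 core genes, 7 were below shScr with a median of −0.16, and none passed in either fit. Pou5f1, which encodes OCT4, was at −0.21 (SE 0.16). Of the 17 naive genes, 8 were above and 9 below, with a median of −0.07, or 0.07 without the 4 libraries with high receptor reads. In the Nodal and activin list 13 of 21 genes were above shScr (median 0.12), as were 10878 of all 19490 genes tested. Of this list 3 genes passed with the term, where 0.888% of all genes tested did. Lefty1 and Lefty2 were higher, and Inhbb, a subunit of activins and no member, was lower by the pooled value (−0.67; limma adjusted p = 0.00835 with and 0.380 without the term), at 0.33 in shTet1 and −1.67 in shTet2. Nodal itself was at −0.32 (SE 0.16). In the imprinted list (31 genes, median −0.14), Cdkn1c, an inhibitor of the cell cycle, passed with the replicate term (limma adjusted p = 0.0462 with and 0.375 without it). It fell mainly in shTet1, by −0.98 against −0.22 in shTet2. The limma adjusted p of the difference between the knockdowns was 0.0494 without and 0.00364 with the term. The median of the 24 methylation-controlled germline genes was −0.05. Their summed normalised reads were 14900 to 18210 in shScr, so the list as a whole was not silent. Of the list, 0 passed with the term (0 also without it), where 0.888% of all genes tested did with it. Of the 24, 7 had an unadjusted limma p under 0.05 with the term (2 higher, 5 lower), where 18.5% of all genes tested did. For the 2-cell-like list the median was −1.02 in shTet1 and 0.96 in shTet2, and 1 of its 16 tested genes was a member.

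**Figure D5:**
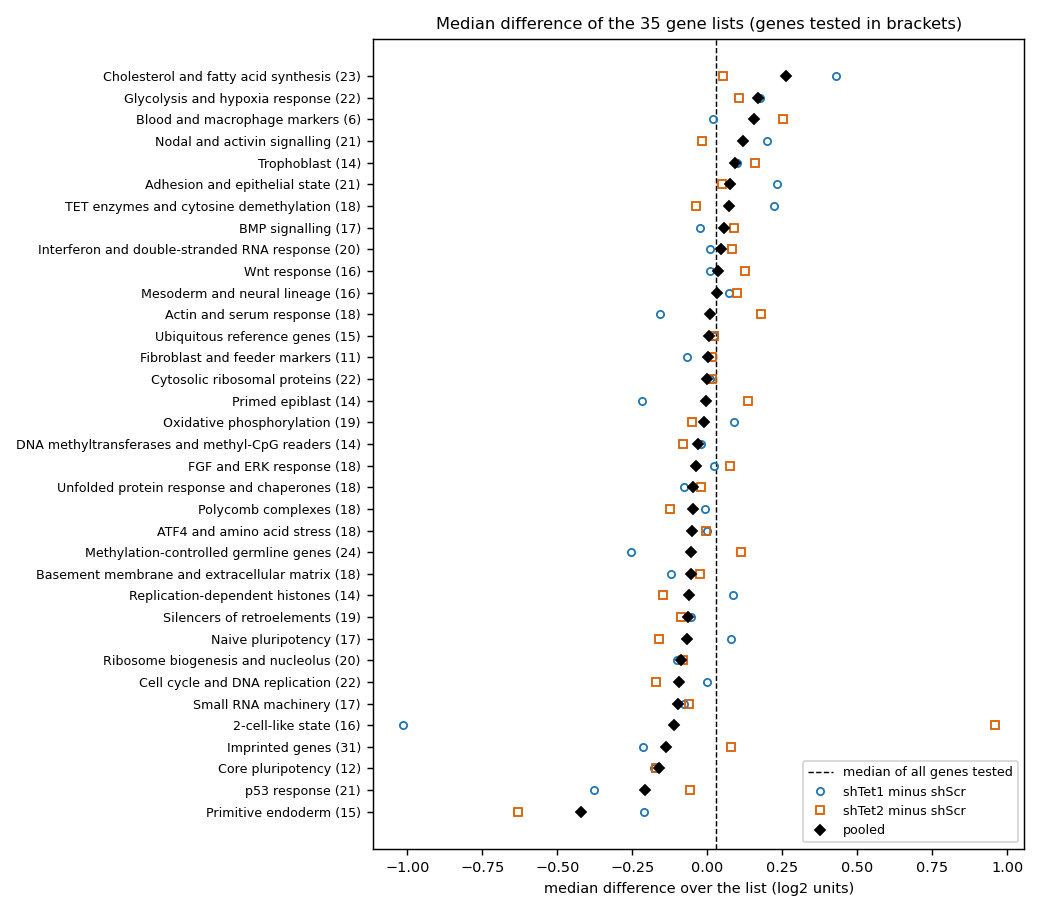
Median difference (x axis, log2 units) of 35 gene lists (y axis, number of genes tested in brackets) for the pooled knockdowns (black), shTet1 (blue) and shTet2 (orange), which share their shScr libraries. Cholesterol and fatty acid synthesis has the highest pooled median (0.26) and primitive endoderm the lowest (−0.42), and the 2-cell-like list is the one with opposite values of about 1.

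The members that passed with the replicate term were compared with all tested genes in features that the rule did not use. In the mm9 annotation, the median gene span was 37.0 kb for those that rose, 26.6 kb for those that fell and 18.97 kb for all tested genes. The median length of merged exons was 3.70, 4.81 and 3.16 kb in the same order, and the median GC content of exons 50.1%, 46.3% and 49.7%. Gene starts were alike, with a median of 14, 18 and 15 CG in 300 bases. The shScr values, which the comparison itself uses and which are given as a description, had a median of 10.48 for those that fell, 7.91 for those that rose and 7.36 for all tested genes. The sets were not matched for these values, and their part in the differences in length was not tested.

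No repeat class passed the pooled comparison. Of 1187 classes tested, 0 passed in limma (0% of those tested), 0 with voom on recovered reads and 0 with the replicate term, while 5 (0.421%) without and 20 with that term had an unadjusted p under 0.05. The 3 classes L1Md_T, L1Md_A and L1Md_Gf of L1 elements, the long interspersed retrotransposons, were below shScr in both knockdowns on average, with a pooled difference of −0.41 (95% confidence interval −0.90 to 0.08) for L1Md_T, −0.33 (−0.70 to 0.05) for L1Md_A and −0.37 (−0.92 to 0.19) for L1Md_Gf. For MERVL-int, the internal part of the endogenous retrovirus of 2-cell embryos, the knockdowns lay on opposite sides, at −1.43 in shTet1 and 0.73 in shTet2. With the replicate term the intervals were −0.79 to −0.04 for L1Md_T, −0.68 to 0.02 for L1Md_A and −0.72 to −0.01 for L1Md_Gf, and the limma adjusted p was 0.999 for each. The difference of L1Md_T was −0.92 among replicates 1 and 2 and −0.07 among replicates 3 to 5, that of L1Md_A −0.72 and −0.06, and that of L1Md_Gf −0.89 and −0.02. Other L1 classes such as L1_Mur1 (0.22 in shTet1 and 0.21 in shTet2) lay above shScr.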

How the data were processed

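RNA of 15 libraries was sequenced. Per the labels and the study's methods, the authors trimmed reads with Trim Galore 0.3.3, aligned them to mm9 with TopHat2 2.0.9, counted them per gene and per repeat class in SeqMonk and transformed the counts with DESeq2. The deposited values are on its variance-stabilised log2 scale. The libraries were directional and each read was kept at 1 position, but the use of strand in counting was not stated, so reads of gene families and overlapping genes are uncertain. Undoing the transformation gave whole reads (within 0.1) for 100% of values, which served for depth and normalised reads. No source says that libraries were separate cultures, so p-values measure the spread between these libraries.

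Differences were fitted to the deposited values with limma 3.58.1 (R 4.3.3) in a model of the 3 groups over the 15 libraries, with a trend of variance over mean, and a pooled contrast of the mean of both knockdowns against shScr. Genes and classes above the minimum in at least 5 libraries were tested, and p-values adjusted by Benjamini-Hochberg. The script was tested on simulated data. The other fit adds the replicate number, which the labels give to all groups. It was taken to pair libraries because each of the 5 correlations was over 0.1 (given in the text). That check cannot establish pairing by number. Libraries of the same number lay on the same side of the replicate split described in the text, which alone can give such correlations. Libraries of different number were not compared. Calls with the replicate term therefore rest on an assumed pairing. The members, gene lists and tests were chosen with earlier results of these data known. Named genes were Tet1 to Tet3, list genes that passed, and up to 12 per direction that passed without overlap of groups (a condition dropped where under 5 did) and whose higher side was at least 2 units over the minimum, ranked by the smaller of the 2 single differences. This rule was applied to both fits, to the second after seeing the data, and skipped 6 predicted genes. It named 20 genes in the second fit (8 higher, 12 lower). The 20 members of smallest p were added after seeing the data. Some items are not reported here. Positions are from GENCODE vM1. Of 35 lists, those not described in the text had 0 genes that passed with the replicate term, except the TET list with Tet1 and Tet2.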

Additional observations from a re-analysis of the deposited data

Results flagged for a closer look

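Of 99 sets of 5 libraries (33 genes in 3 groups), 4 held a library far from the other 4, and chance gives about 1 in 20. Tet3 was 8.12 in shTet2 replicate 3 and 6.71 to 7.0 in the other shTet2 libraries. Papss1 was 7.60 in shScr replicate 4 against 8.06 to 8.18, and Rfk was 8.71 in the same library against 8.89 to 8.94. Zmat4 was 10.03 in shTet2 replicate 4 against 9.01 to 9.17. The 3 last values came from libraries with high receptor reads, whose part in them was not tested.

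The effect of the 2 knockdowns differed for 5 of the 33 genes by the contrast shTet2 minus shTet1 in limma without the replicate term, where 4.24% of all genes tested did. Most of the 33 had been named for passing in these libraries, so the 2 shares are not alike in kind. It was 1.66 for Tet1 (adjusted p = 0.000106) and −1.63 for Tet2 (adjusted p = 5.02e-06), the 2 targets. It was 0.60 for Ccdc141 (limma adjusted p = 0.0488), which was higher in both knockdowns, −1.36 for Scd1 (0.00304) and 0.77 for Cdkn1c (0.0494).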

How the results depend on the processing

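The 2 genes that passed became 8 with no filter, 10 with the stricter filter, 6 with median centring, 14 with array weights, 22 with the term for replicates 1 and 2 against 3 to 5, 20 with the receptor share as covariate and 173 with the replicate block. They became 0 in a 2-group model (1562 at an unadjusted p under 0.05), in which the 2 knockdowns count as 1 group, 1 at an adjusted p under 0.01 and 1 without the 4 libraries of high receptor share. They were 2 without the variance trend or with quantile normalisation and 3 with voom on recovered reads. Leaving out 1 library gave 1 to 12, with 12 without shTet1 replicate 5 and 1, Tet2 alone, without shScr replicates 1 or 4, shTet1 replicates 2, 3 or 4, or shTet2 replicate 1. With the replicate block, alternatives chosen after seeing the data gave 161 with median centring, 77 with voom, 428 without the 3 libraries numbered 3, 1 without the 4 libraries of high receptor share and, without 1 library, 7, 22, 390, 12 and 250 (shScr replicates 1 to 5), 67, 47, 59, 59 and 360 (shTet1) and 87, 49, 391, 32 and 49 (shTet2), a range of 7 to 391. The cause was not tested. Median centring moved the median of all genes from 0.027 to −0.052. Repeat classes that passed were 0 in each alternative except block with median centring, which gave 1. Over 38 genes and classes, none of the 1102 alternative values changed direction, 59 passed the threshold where the reported fit did not and 10 lost it, 1 of Tet2 (2-group model) and 9 of Ccdc141. Most of these genes had been named for passing in the same data, so their kept direction is no separate support. The effect of depth on the number of calls was not tested, and Kcnj11 rests on few reads.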

Other observations

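The genes on either side of Ccdc141 had other values. Ttn, which ends 27356 bases away on the same strand (chromosome 2, 76542037 to 76820604, mm9), was at −0.95 in the pooled comparison, against 0.99 for Ccdc141, and Sestd1, 9704 bases to the other side, at 0.01 (95% confidence interval −0.28 to 0.30; limma adjusted p = 0.986). Ttn varied widely within shTet1 (10.38, 10.39, 12.45, 11.96 and 12.20 in replicates 1 to 5). Another 3 genes passed the pooled comparison with the replicate term although the knockdowns lay on opposite sides. Among them, Inhbb was at 0.33 in shTet1 and −1.67 in shTet2, and Slc25a15, the mitochondrial ornithine carrier, at 0.28 and −1.15.

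Of the interferon list, Ifit1 had the highest pooled difference (0.69; limma adjusted p = 0.0847 with the term), and the list's median was 0.05.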
